A study of Mus musculus with 4 samples.

Results

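The miR-322/miR-503 cluster is a group of miRNA hairpins on the mouse X chromosome that lie close together on 1 strand. Its 7 members described here were taken by name from the deposited table of 1979 mature miRNAs: mmu-miR-322-5p, mmu-miR-322-3p, mmu-miR-503-5p, mmu-miR-351-5p, mmu-miR-542-3p, mmu-miR-450a-5p and mmu-miR-450b-5p. All 7 were detected in every library and all 7 passed the minimum used here for an expressed miRNA, a mean of 10 RPM (reads per 1000000 counts of a library) over the 4 libraries, which 255 miRNAs passed.

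Small RNA was sequenced from resting bone marrow derived macrophages (BMDMs) of mice that carry different forms of mir-146a, a miRNA that restrains innate immune signalling. There were 2 wild-type (WT) libraries, A and B, 1 library from knock-out (KO) cells, whose mir-146a precursor is deleted, and 1 library from 3′F cells, the non-seed swap, in which mir-146a keeps its seed and carries exchanged bases in its 3′ part. All mice had a mixed 129/B6 background and were 6 to 7 months old, with 3 mice of each genotype, and each mutant allele came from targeted ES cells. Marrow cells of all genotypes were plated at 85000 cells per cm2 and grown for 8 to 9 days with M-CSF (10 ng/ml), the growth factor that drives macrophage formation, then harvested 16 h after a change to medium without LPS. The labels call the cultures separate but do not say whether a library pools mice, so the spread between the WT libraries may be partly technical. Because each mutant has 1 library, no difference from WT could be tested, and every ratio below has no replicate check on the mutant side.

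The libraries held 11410940 to 19087640 counts. miR-146a-5p read 6253 RPM in WT A and 5485 RPM in WT B against 13.4 RPM in KO and 6.64 RPM in 3′F, and the miRNA made by the 3′F allele read 10.6 RPM (171 counts) in its own library and 0 counts in the other 3. The KO library thus still held 256.5 counts listed as miR-146a-5p. In reads, the 3′F miRNA was far below the WT level of miR-146a-5p and close to the 6.64 RPM still listed for miR-146a-5p beside it. Ligation depends on the sequence, so read levels of these different sequences cannot be compared as amounts. The paper's qRT-PCR, which it calls far more accurate, gave similar absolute levels of both forms in most tissues and cell types examined. All 5 myeloid marker miRNAs were expressed, with summed levels of 336703 to 382667 RPM. Nearly all of this sum was miR-21a-5p, which many cell types express, and the other 4 summed to 2822 to 3639 RPM. Of the 5 stromal and mesenchymal markers 0 were expressed, with summed levels of 12.0 to 15.9 RPM. Of the 4 erythroid markers 3 were expressed, and all 4 were below both WT libraries in KO and in 3′F. Their sum was 170 RPM in WT A, 159 RPM in WT B, 70.4 RPM in KO and 80.3 RPM in 3′F. The lymphoid list (1 of 2 expressed) summed to 489 to 607 RPM, the endothelial marker to 9.82 to 13.2 RPM and the skeletal muscle list (0 of 3 expressed) to 0.62 to 1.48 RPM. The part of other cells in the values of the cluster was not tested, and in bulk samples fewer cells of a type cannot be told apart from less RNA per cell.

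Clustered miRNAs are usually cut from a shared primary transcript. Drosha releases each hairpin, Dicer cuts the hairpin to a duplex of its 5p and 3p arms, and 1 arm is preferentially loaded into an Argonaute protein. The loaded miRNA finds its targets mainly through its seed, bases 2 to 8 from its 5′ end. Mouse miR-322 is the counterpart of human miR-424, which has been tied to the maturation of monocytes, and miR-322-5p and miR-503-5p belong to the extended miR-15/16 family, known for restraining cell cycle genes. In the annotation of GRCm38 (GENCODE vM21) the 7 hairpins spanned 6353 bp of the minus strand of chromosome X. In the order of transcription they were Mir322 (chrX:53054255-53054349), Mir503 (chrX:53053984-53054054), Mir351 (chrX:53053255-53053353), Mir542 (chrX:53049403-53049487), Mir450-2 (chrX:53048299-53048367), Mir450-1 (chrX:53048154-53048244) and Mir450b (chrX:53047997-53048078). The gaps between neighbours were 200, 630, 3767, 1035, 54 and 75 bp, so the hairpins fell into a group of mir-322, mir-503 and mir-351 and a group of mir-542 and the mir-450 hairpins. None overlapped another annotated gene, the lincRNA Gm28730 lay in the 3767 bp gap between Mir351 and Mir542, and the transcript C430049B03Rik ended 696 bp upstream of Mir322 on the same strand.

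The mature sequences are shown because the seeds separate the members into those that share their targeting bases with other expressed miRNAs and those that do not. Each is written 5′ to 3′ as RefSeq gives it for GRCm38.p6, with the seed in capitals.
miR-322-5p: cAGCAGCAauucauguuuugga
miR-503-5p: uAGCAGCGggaacaguacugcag
miR-16-5p: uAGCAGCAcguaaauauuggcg
miR-15b-5p: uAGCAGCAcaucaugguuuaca
miR-351-5p: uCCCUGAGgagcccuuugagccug
miR-125a-5p: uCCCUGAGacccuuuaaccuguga
miR-125b-5p: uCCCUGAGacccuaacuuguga
miR-322-3p: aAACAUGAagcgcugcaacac
miR-542-3p: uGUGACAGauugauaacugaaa
miR-450a-5p: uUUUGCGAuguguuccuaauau
miR-450b-5p: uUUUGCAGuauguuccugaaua
miR-322-5p had its whole seed in common with miR-16-5p and miR-15b-5p. miR-503-5p matched that seed from base 2 to base 7 and differed from miR-322-5p at the last seed base (A8G, counted from 1 at the 5′ end, miR-322-5p first). miR-351-5p was identical to miR-125a-5p and to miR-125b-5p over bases 1 to 8. miR-450a-5p and miR-450b-5p had 15 of 22 bases in common, yet differed inside the seed (G7A and A8G, miR-450a-5p first). The seeds of miR-322-3p, miR-503-5p, miR-542-3p, miR-450a-5p and miR-450b-5p occurred in no other listed miRNA with a sequence at hand (1679 of 1979 listed, 230 of 255 expressed).

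Levels within the cluster were uneven and kept nearly 1 order in all 4 libraries. miR-351-5p read 699 RPM in WT A, 982 RPM in WT B, 917 RPM in KO and 711 RPM in 3′F, from 11209 to 17508 counts. It was the highest member in every library and ranked 65 of 1979 miRNAs by mean level. miR-322-3p followed with 255 RPM in WT A, 282 RPM in WT B, 309 RPM in KO and 291 RPM in 3′F. miR-351-5p was 2.44 to 3.49 times as high as miR-322-3p within a library, and miR-322-3p was 2.44 to 2.95 times as high as the next member. miR-542-3p, which is known to target the apoptosis inhibitor survivin, read 102 RPM in WT A, 116 RPM in WT B, 105 RPM in KO and 109 RPM in 3′F. miR-503-5p read 88.4 RPM in WT A, 90.0 RPM in WT B, 105 RPM in KO and 88.0 RPM in 3′F. Their ranges overlapped, and in KO both had 1998 counts, so their order could not be read there. miR-322-5p, the arm that carries the miR-15/16 seed, read 71.1 RPM in WT A, 62.8 RPM in WT B, 68.7 RPM in KO and 59.5 RPM in 3′F. miR-450a-5p, made from both mir-450a hairpins, read 48.7 RPM in WT A, 45.0 RPM in WT B, 60.6 RPM in KO and 49.2 RPM in 3′F. miR-322-5p was above miR-450a-5p within each of the 4 libraries, although the ranges over libraries overlapped. miR-450b-5p was the lowest member with 34.5 RPM in WT A, 30.9 RPM in WT B, 27.7 RPM in KO and 29.3 RPM in 3′F, from 352 to 589 counts, and its range met that of no other member. Adapter ligation and PCR depend on the sequence, so a level compared between members is one of reads and not of molecules.

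**Figure D1:**
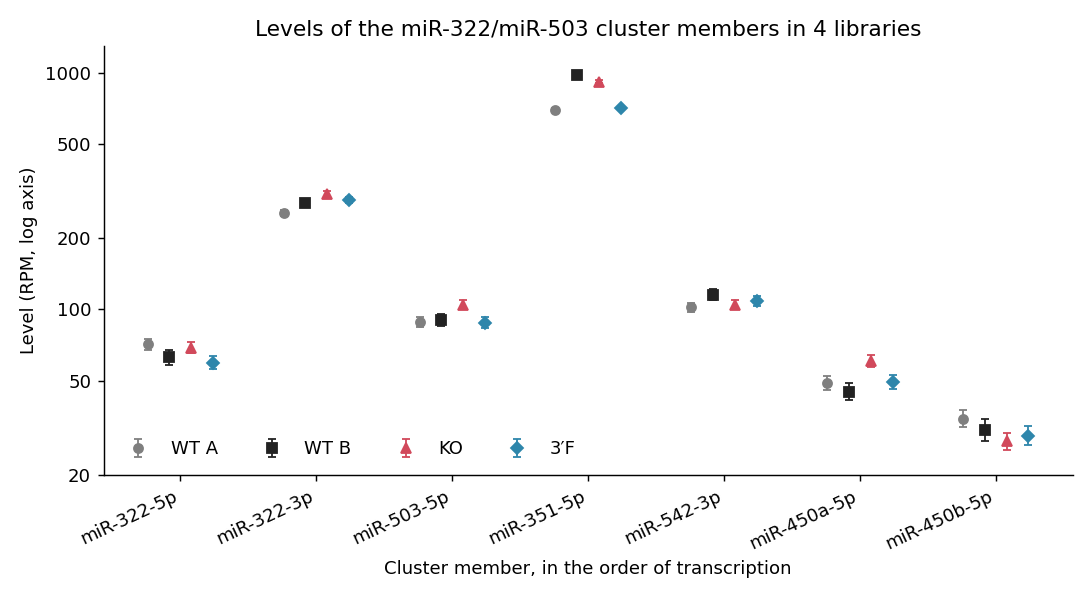
Level of each cluster member (RPM, log axis) in the 4 libraries, in the order of transcription, with points for WT A, WT B, KO and 3′F and bars for the 95% Wilson interval of the count. miR-351-5p sits highest and miR-450b-5p lowest in every library, and position along the transcript does not order the levels.

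The highest member exceeded the lowest 20.3-fold, 31.8-fold, 33.2-fold and 24.3-fold in WT A, WT B, KO and 3′F. miR-351-5p alone held 53.8% (95% Wilson interval 53.2 to 54.5) of the members' counts for WT A and 61.1% (60.4 to 61.8) for WT B, and 57.6% (57.1 to 58.2) for KO and 53.2% (52.5 to 53.9) for 3′F. These intervals cover counting error only and may be too narrow even for that, since reads are not independent molecules. Evenness was measured as Pielou's index, the Shannon entropy of the members' levels divided by its maximum, which is 1 when all members are equal. It was 0.727 for WT A, 0.647 for WT B, 0.680 for KO and 0.717 for 3′F, and both mutant values lay between those of the WT libraries. Over the other 6 members it was 0.875, 0.847, 0.846 and 0.839 in the same order, higher than with miR-351-5p in every library. The member left out was chosen after seeing that it dominated these data, so the rise only restates its large share.

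Other runs of hairpins gave a measure of how usual this spread was. Positions were found for 1046 of 1235 listed precursors, and 6 that share a symbol were left out. Among the placed hairpins, 9 runs with gaps of at most 10000 bp on 1 strand held at least 3 expressed hairpins. The miR-322/miR-503 cluster had 7 listed above the minimum, where both mir-450a hairpins count through the divided reads of miR-450a-5p, so that it had 6 different expressed miRNAs, as many as mir-17 to mir-92a-1. Scored by the more abundant arm of each hairpin line and averaged over the libraries, its levels spread 32.5-fold, from miR-351-5p at 827 RPM to 25.4 RPM on a mir-450a line, which is a divided count. With each miRNA whole and entered once, an alternative chosen after seeing the data, the lowest was miR-450b-5p (30.6 RPM) and the spread 27.1-fold. By either measure it was the seventh narrowest of the 9 spreads. The narrowest run was mir-23a to mir-24-2 (1.44-fold by lines, 2.86-fold whole), while mir-17 to mir-92a-1 spread 170-fold by lines and 181-fold whole, and mir-501 to mir-532 spread 398-fold both ways. By evenness the cluster ranked 5 of 9 by lines with 0.638 and 4 of 9 with whole miRNAs with 0.679. No test was run on these ranks, as the runs differ in their number of hairpins.

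**Figure D2:**
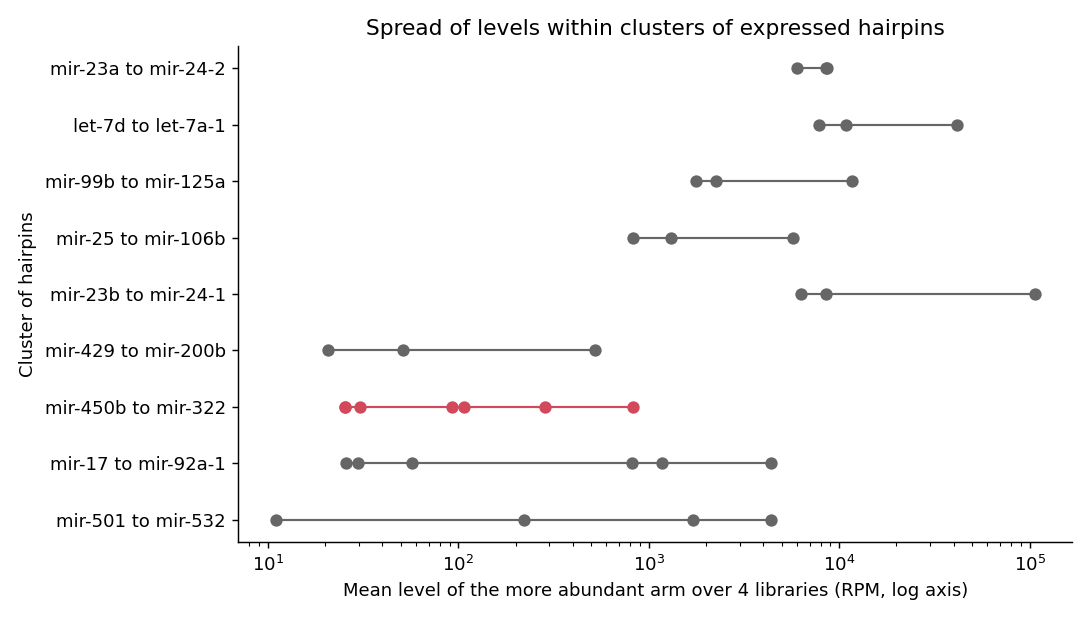
Mean level over the 4 libraries of the more abundant arm of each expressed hairpin (RPM, log axis), 1 row per run of hairpins, ordered by the ratio of the highest to the lowest hairpin. The miR-322/miR-503 cluster (red, labelled mir-450b to mir-322) spans 32.5-fold by these line values, wider than 6 runs and narrower than 2, and its lowest points are the divided counts of miR-450a-5p.

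The arms differed from hairpin to hairpin. At mir-322 the 3p arm held most counts. Its share was 78.2% (95% Wilson interval 77.1 to 79.2) for WT A and 81.8% (80.5 to 82.9) for WT B, and 81.8% (80.9 to 82.7) for KO and 83.0% (82.0 to 84.0) for 3′F. The interval of WT A lay below those of the other 3 libraries. How often a library stands apart in this way over all hairpins was not counted. In reads, the arm with the miR-15/16 seed was below the other arm of its hairpin in every library, by 3.58-fold to 4.89-fold. The arms of a hairpin are different sequences that can ligate differently, so arm shares are of reads and not of molecules. At mir-542 the 3p arm was nearly alone, since the 5p arm had 5, 0, 8 and 2 counts in WT A, WT B, KO and 3′F. In WT B a count of 0 allows a level of up to 0.263 RPM (3 counts), which is close to the 0.29 RPM of WT A. Elsewhere in the cluster the 5p arm led. The 3p share was 10.0% to 12.3% at mir-503 and 0.506% to 0.741% at mir-351. Over all 176 hairpins with both arms listed and at least 1 arm expressed, 73 (41.5%) had more 3p than 5p, and 44 had arms within 8-fold of each other, as mir-322 and mir-450b did in all 4 libraries and mir-503 in WT B alone.

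The 3 mir-450 hairpins lay close together and had partly alike mature sequences. miR-450a-5p is the same molecule from mir-450a-1 and mir-450a-2, and its counts were listed in nearly equal parts on both, as 415.5 and 416.5 for WT A, 256.5 and 256.5 for WT B, 579 and 578 for KO, and 398.5 and 398.5 for 3′F. This is how reads that fit more than 1 line were shared out, so the 5p counts do not tell how much each hairpin gave. The 3p arms do differ in sequence, and there miR-450a-1-3p had 27, 22.5, 24 and 15 counts in WT A, WT B, KO and 3′F against 1 count of miR-450a-2-3p in each library. miR-450b-3p had 214, 124.5, 244 and 122 counts in the same order. It differs from miR-450a-1-3p at 2 positions (A19G and A20C, miR-450a-1-3p first), so reads that end before base 19 fit both, and the split between them is uncertain. The 3p share at mir-450b was 26.7% (95% Wilson interval 23.7 to 29.8) for WT A and 26.1% (22.4 to 30.3) for WT B, and 31.6% (28.4 to 35.0) for KO and 20.5% (17.4 to 23.9) for 3′F. KO lay above and 3′F below both WT libraries. The intervals of KO and 3′F did not meet each other, although each met the interval of at least 1 WT library. At every other hairpin of the cluster the KO and 3′F intervals met. How often such intervals part over all hairpins was not counted.

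**Figure D3:**
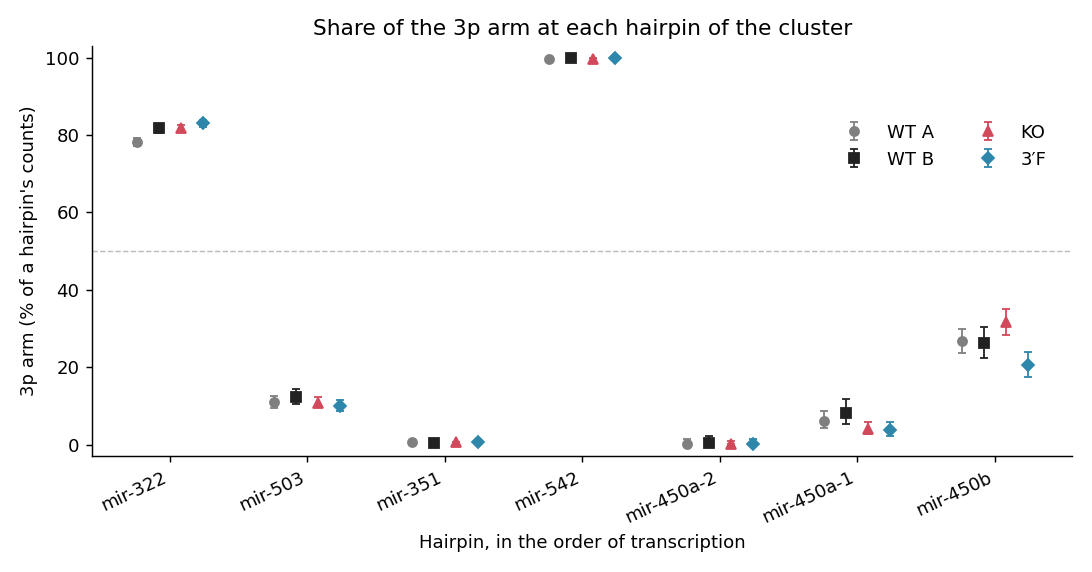
Share of a hairpin's counts on its 3p arm (%) at the 7 hairpins in the order of transcription, with points for the 4 libraries, bars for 95% Wilson intervals and a dashed line at equal arms. mir-322 (78.2% to 83.0%) and mir-542 lie above the line and the other 5 hairpins below it.

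The log2 ratios of the 7 members to WT ran from -0.23 to 0.37 in KO and from -0.22 to 0.12 in 3′F. Ratios are differences of log2(RPM + 1) from the mean of the WT libraries, and a call required a 2-fold or larger distance from WT A and from WT B on the same side. In KO 0 of 7 members were called, and 9 of 255 expressed miRNAs (3.53%) were. In 3′F 0 of 7 members were called, and 2 of 255 (0.784%) were. With so few calls over all expressed miRNAs, 0 of 7 does not set the members apart. The median log2 ratio of the members was 0.15 in KO beside 0.01 over all expressed miRNAs, and -0.02 in 3′F beside -0.08. Between the WT libraries 0 of 255 expressed miRNAs were 2-fold apart, and the members' median difference, WT B minus WT A, was 0.02 beside 0.07. The KO and 3′F ratios have the same WT libraries as their reference.

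In KO 3 members were above both WT libraries and 1 below, where 37.6% of expressed miRNAs lay above and 40% below. miR-450a-5p had the largest of these ratios, with a log2 ratio of 0.37, its 60.6 RPM standing against 46.8 ± 2.67 RPM in WT (mean and SD, n = 2). miR-503-5p was 0.23 higher on the log2 scale, at 105 RPM against 89.2 ± 1.10 RPM, and miR-322-3p was 0.20 higher, at 309 RPM against 268 ± 19.1 RPM. For these 3 the 95% counting intervals of KO lay above those of both WT libraries. The intervals stood clear on either side for 51.8% of expressed miRNAs. miR-450b-5p had a log2 ratio of -0.23, at 27.7 RPM against 32.7 ± 2.58 RPM, so the miR-450 pair had KO ratios of opposite sign. miR-322-5p (0.04), miR-351-5p (0.15) and miR-542-3p (-0.05) lay between the WT libraries. With total counts taken without miR-21a-5p, which held 33.4% to 37.9% of each library, or with TMM factors, 3 members were above and 2 below. The KO ratios of all expressed miRNAs moved by a median of -0.06 and 0.001 in that order. Their shares above and below were not counted there.

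In 3′F 2 members were above both WT libraries and 3 below, where 23.1% of expressed miRNAs lay above and 43.9% below. These directions depended on the scaling. With TMM factors or with DESeq2 size factors 4 members were above and 0 below, and with total counts without miR-21a-5p 1 was above and 4 below. The 3′F ratios of all expressed miRNAs moved too, by a median of 0.08, 0.07 and -0.01 in that order. Their shares above and below were not counted under these scalings. The ratios were 0.12 for miR-322-3p, 0.07 for miR-450a-5p, -0.02 for miR-503-5p, -0.15 for miR-450b-5p and -0.17 for miR-322-5p. For 0 of 7 members did the counting interval of 3′F stand clear of both WT libraries, against 33.7% of expressed miRNAs. miR-542-3p (0.00) and miR-351-5p (-0.22) lay between the WT libraries.

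miR-351-5p varied most between the WT cultures themselves. Its level was 841 ± 200 RPM in WT (SD, n = 2), a gap of 1.40-fold from WT A to WT B that ranked 20 of the 255 expressed miRNAs, and KO lay near WT B while 3′F lay near WT A. Without WT B its 3′F ratio was 0.02 and without WT A it was -0.47, so this ratio is set by the choice of WT library. The summed level of the 7 members followed miR-351-5p, with 1299 RPM in WT A, 1608 RPM in WT B, 1592 RPM in KO and 1336 RPM in 3′F. The log2 ratio of the sum to the WT mean was 0.14 in KO and -0.11 in 3′F. Both sums lay between those of the WT libraries, whose full gap was 0.31. The other 6 members summed to 599 RPM in WT A, 626 RPM in WT B, 675 RPM in KO and 625 RPM in 3′F. Without miR-351-5p the WT gap was 0.06, the KO ratio 0.14 and the 3′F ratio 0.03.

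**Figure D4:**
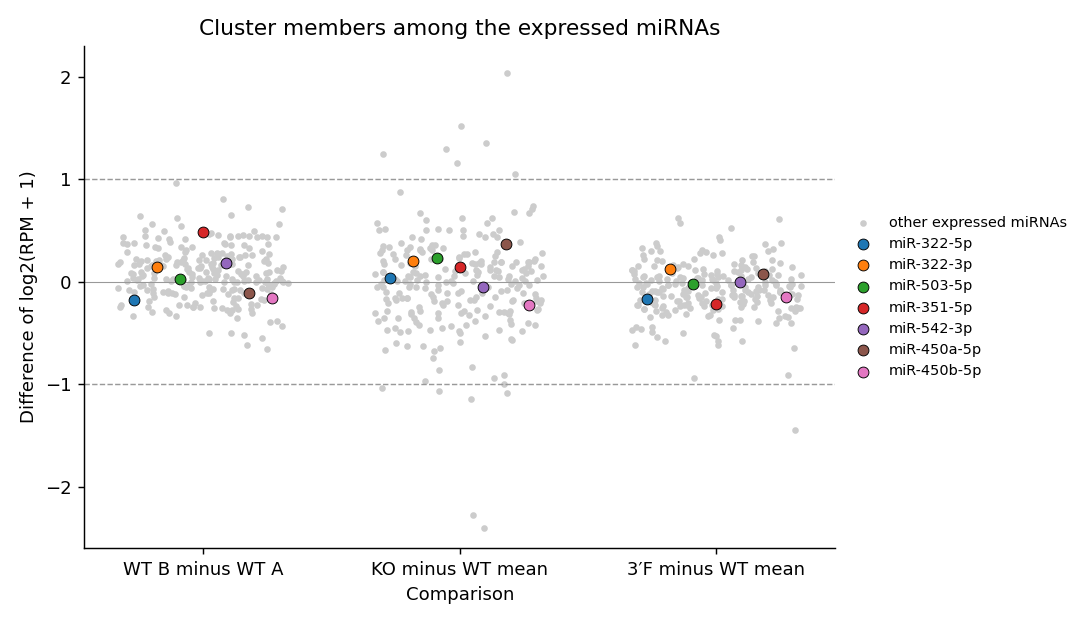
Difference of log2(RPM + 1) for WT B minus WT A, KO minus the WT mean and 3′F minus the WT mean, with the 7 members in colour, the other expressed miRNAs in grey and dashed lines at 2-fold. The members stay inside the lines in all 3 comparisons, and 2 grey points lie below the axis, miR-146a-5p at -8.66 in KO and at -9.58 in 3′F.

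The seeds of 2 members were shared with other expressed miRNAs, some more abundant and some less. With the seed of miR-322-5p, miR-16-5p read 1160 to 1287 RPM, miR-15b-5p 388 to 465 RPM and miR-15a-5p, lower than miR-322-5p in every library, 34.1 to 42.9 RPM. miR-322-5p made up 3.87% of the summed level with this seed for WT A, 3.50% for WT B, 4.07% for KO and 3.60% for 3′F. When 1 line was taken per miRNA instead of the sum of its lines, these shares were 5.94%, 5.31%, 6.20% and 5.56%. The sum itself was 1837 RPM in WT A, 1797 RPM in WT B, 1688 RPM in KO and 1652 RPM in 3′F, with log2 ratios of -0.11 and -0.14 in KO and 3′F. Counted over bases 2 to 7, which takes in miR-503-5p, both members together held 8.28% for WT A, 8.10% for WT B, 9.68% for KO and 8.48% for 3′F.

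miR-351-5p was a larger part of its seed group, which it shares with miR-125a-5p and miR-125b-5p, miRNAs known from blood cell development. It held 22.4% for WT A, 27.5% for WT B, 19.1% for KO and 20.1% for 3′F, so both mutant shares were below those of the WT libraries. The WT shares were further apart than either mutant share was from WT A. How often a share falls outside both WT libraries in other seed groups was not counted. With 1 line per miRNA the shares of miR-351-5p were 26.7%, 31.9%, 22.5% and 23.7% in the same order. In KO its relatives were higher while its own level lay between the WT libraries. miR-125a-5p read 1409 RPM in WT A, 1578 RPM in WT B, 2379 RPM in KO and 1740 RPM in 3′F. miR-125b-5p read 1011 RPM in WT A, 1016 RPM in WT B, 1511 RPM in KO and 1083 RPM in 3′F. Their KO ratios were 0.67 and 0.58 on the log2 scale beside 0.15 for miR-351-5p. The group summed to 3119 RPM in WT A, 3577 RPM in WT B, 4808 RPM in KO and 3534 RPM in 3′F, with a KO ratio of 0.53, a 3′F ratio of 0.08 and a WT gap of 0.20.

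**Figure D5:**
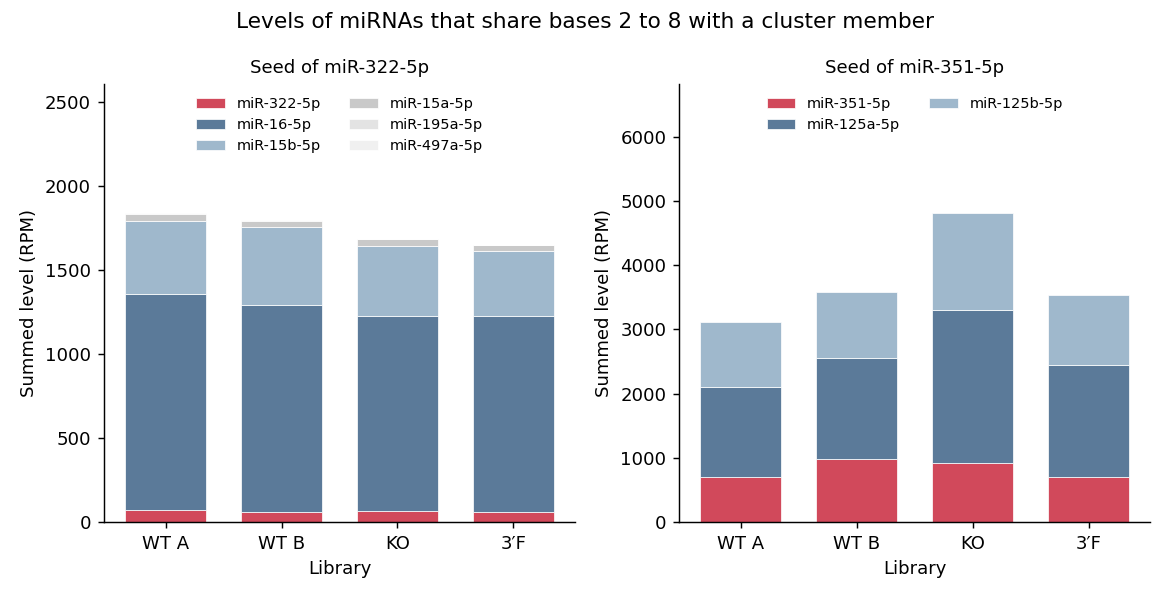
Summed level (RPM) of the miRNAs with the seed of miR-322-5p (left) and of miR-351-5p (right) in the 4 libraries, each bar divided by miRNA with the cluster member in red at the base. miR-322-5p is 3.50% to 4.07% of its bar and miR-351-5p 19.1% to 27.5% of its bar, with the lines of each miRNA summed.

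The summed level of the cluster was compared with each expressed miRNA from outside the cluster over the 4 libraries, each profile centred on its own mean log2 level. The 5 most like it were miR-30c-5p, miR-320-3p, miR-423-5p, miR-191-5p and miR-151-3p, with mean absolute log2 differences of 0.035 to 0.050. The median over the 246 miRNAs compared was 0.17. With 4 libraries of 3 genotypes, this likeness is a description only.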

How the data were processed

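Total RNA was made into small RNA libraries with a ligation kit (NEBNext), sized for inserts of miRNA length. The submitters' processing notes name cutadapt 1.8.3, and the aligner, miRNA release and genome build were not given in the sources used here. The authors deposited estimated counts per mature miRNA and precursor, in which reads that fit several lines were shared out as fractions, and RPM values, each count per 1000000 of the library's summed counts. All sample columns were used (0 left unmapped).

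From these, the lines of a mature miRNA were summed (2129 lines, 1979 miRNAs). Among miRNAs with 2 lines, 39.3% of line values were whole and 67.2% of sums were (tolerance 0.01), against 90.1% for miRNAs with 1 line. The minimum for an expressed miRNA was a mean of 10 RPM. Ratios used log2(RPM + 1), which understates changes of low miRNAs. A call needed 2-fold from both WT libraries. No p-value was computed. Totals were 17073442 (WT A), 11410940 (WT B), 19087640 (KO) and 16194595 (3′F) counts, and 3 counts were 0.157 to 0.263 RPM. Intervals are 95% Wilson intervals. The functions were tested on simulated data with changes larger than the 2-fold call, so that test does not bear on smaller changes.

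All 7 members were named, relatives were named by shared seed, and the 5 nearest profiles by mean absolute difference. The members and lists were chosen with earlier results of these data known. Marker lists came from general knowledge. Alternatives were TMM factors (edgeR 4.0.16), size factors (DESeq2 1.42.0), totals without miR-21a-5p, 1 line per miRNA, a pseudocount of 0.1, other minimums and folds, and leaving out a WT library. Work was done in Python 3.11.15 (pandas 2.3.3, numpy 2.4.6, scipy 1.17.1, matplotlib 3.10.9) and R 4.3.3.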

Additional observations from a re-analysis of the deposited data

How the results depend on the processing

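At both mutant comparisons 0 members were called under every alternative, including a 1.5-fold call. The member ratios were small, and a 3-fold call cannot find what a 2-fold call missed, so these repeats add little. The share of all expressed miRNAs called was not counted under the other scalings, pseudocount, choice of lines or left-out WT library. Of 70 values of the 14 member ratios under another scaling, pseudocount or choice of lines, 66 moved by less than the SD of the WT libraries and 4, all of miR-503-5p, by more. Leaving out a WT library always moves a ratio by the WT SD or less, so it is no check of stability. With those settings included, 6 ratios changed sign under at least 1 alternative, and the largest absolute ratio was 0.47. Leaving out a WT library moved the ratio of the summed cluster between -0.01 and 0.29 in KO (-0.01 without WT A) and between -0.27 and 0.04 in 3′F (0.04 without WT B), so their signs rest on the choice of WT library. Without miR-351-5p, an alternative chosen after seeing the data, the summed 3′F ratio was 0.03. The mean evenness over the libraries was 0.693, and became 0.566 with both arms of every hairpin and 0.852 without miR-351-5p (chosen after seeing the data). With 1 line per miRNA, the share of miR-322-5p in its seed group rose from 3.76% to 5.75% and that of miR-351-5p from 22.3% to 26.2%, since miR-16-5p and miR-125b-5p each come from 2 hairpins and lose counts by that choice. Of the 255 expressed miRNAs 9 were called in KO, and 27 or 4 with a 1.5-fold or 3-fold call. In 3′F 2 of the 255 were called, and 6 or 1 with those folds. A minimum of 1 or 100 RPM changes how many miRNAs count as expressed, and those totals are not given here. With these minimums 17 or 3 were called in KO and 3 or 1 in 3′F. No paired analysis was possible because each mutant has 1 library, so fewer than 2 pairs with WT can be formed. With 1 library per mutant the spread between mutant cultures is unknown, and for the lowest member, miR-450b-5p, the KO and 3′F counting intervals overlapped those of WT B.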
